A study of Homo sapiens with 6 samples.

Results

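The genes described here encode the integrins, which are receptors for the extracellular matrix, the laminins that many of them bind, the nidogens that link laminin to collagen IV, and dystroglycan, a further laminin receptor. Members were taken by gene symbol alone and by no measured value: the integrin α and β genes, the genes of the laminin α, β and γ chains, NID1, NID2 and DAG1, read as liver-derived against parental cells. They came to 41 of the 57500 genes in the deposited tables, with 26 integrin, 12 laminin and 2 nidogen genes beside DAG1. A filter on low counts was passed by 31 of the 41, and the other 10 are given by their counts.

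The RNA came from 22Rv1, a human cell line of prostate cancer, with 3 libraries in each of 2 groups. The control group was the parental line, with genotype label "Wilde Type". The other was 22Rv1 with the label "Liver metastase drived", called liver-derived here. All 6 were labelled with 1 growth medium, RPMI-1640 with 10% fetal bovine serum. The labels name no allele, transgene or drug in either group, do not say whether the liver-derived cells are a clone or a pool, and name no separate derivations or cultures. The p-values therefore measure the spread between these libraries, which may be technical, and an effect of the liver and any other difference between both groups of cells cannot be told apart.

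A laminin is a cross of 1 α, 1 β and 1 γ chain, joined inside the cell before secretion, and its name lists its chains. The α chain carries the main contacts for integrins and dystroglycan, and the short arms of the chains join into the network of the basement membrane. An integrin is a pair of 1 α and 1 β subunit, and the pair sets the ligand: α3, α6 and α7 bind laminin, αV and α5 bind proteins with an RGD motif such as fibronectin and vitronectin, and α1 and α2 bind collagen. In the normal prostate, basal cells rest on a basement membrane through integrin α6β4, which binds laminins that hold the α3 chain.

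Library totals ranged from 28395265 to 53275252 counts. Parental replicate 2 was unlike its group: chi-square over genes, divided by its degrees of freedom, reached 55.7 against replicate 1 and 62.7 against replicate 3. It was 2.26 between replicates 1 and 3, and 2.43 to 3.15 between liver-derived libraries. Its deviation went with GC content, as shown for the members below, so the counts of called members and list genes are also given without it. All 9 prostate epithelium markers were read, and the list summed to 3354 to 3700 CPM (each library's counts scaled to a common total by TMM) in parental and 3506 to 3568 CPM in liver-derived libraries.

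Of the 31 members tested, 6 were higher and 9 lower in liver-derived cells, and 16 did not pass the threshold of an adjusted p of 0.05 (edgeR quasi-likelihood test, Benjamini-Hochberg over 19255 genes). The called share was 48.4%, where 38.8% of all genes tested were called, 17.5% higher and 21.3% lower. The median log2 fold change of the members was -0.22, and that of all genes was -0.00754. Of the 12 laminin, nidogen and dystroglycan genes tested, 10 were called, 6 higher and 4 lower. Of the 19 integrins tested, 5 were called, all 5 lower. Of 21 integrins 11 were lower without parental replicate 2, and laminins, nidogens and dystroglycan were 6 higher and 3 lower of 13, where 59.8% of all genes were called. With a correction for GC content, 7 integrins were lower and 2 higher, where 56.7% of all genes were called. By edgeR 0 integrins were higher, against 2 at an unadjusted p under 0.05, 1 by DESeq2 (ITGA5) and 1 without parental replicate 2 (ITGA5). The difference between both families was not tested. A change of at least 2-fold passed in 4 members, LAMB3, LAMC3 and ITGA2B among them, where 13.8% of all genes did so. The CPM of both groups did not overlap in 19 of the 31, and in 54% of all genes.

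**Figure D1:**
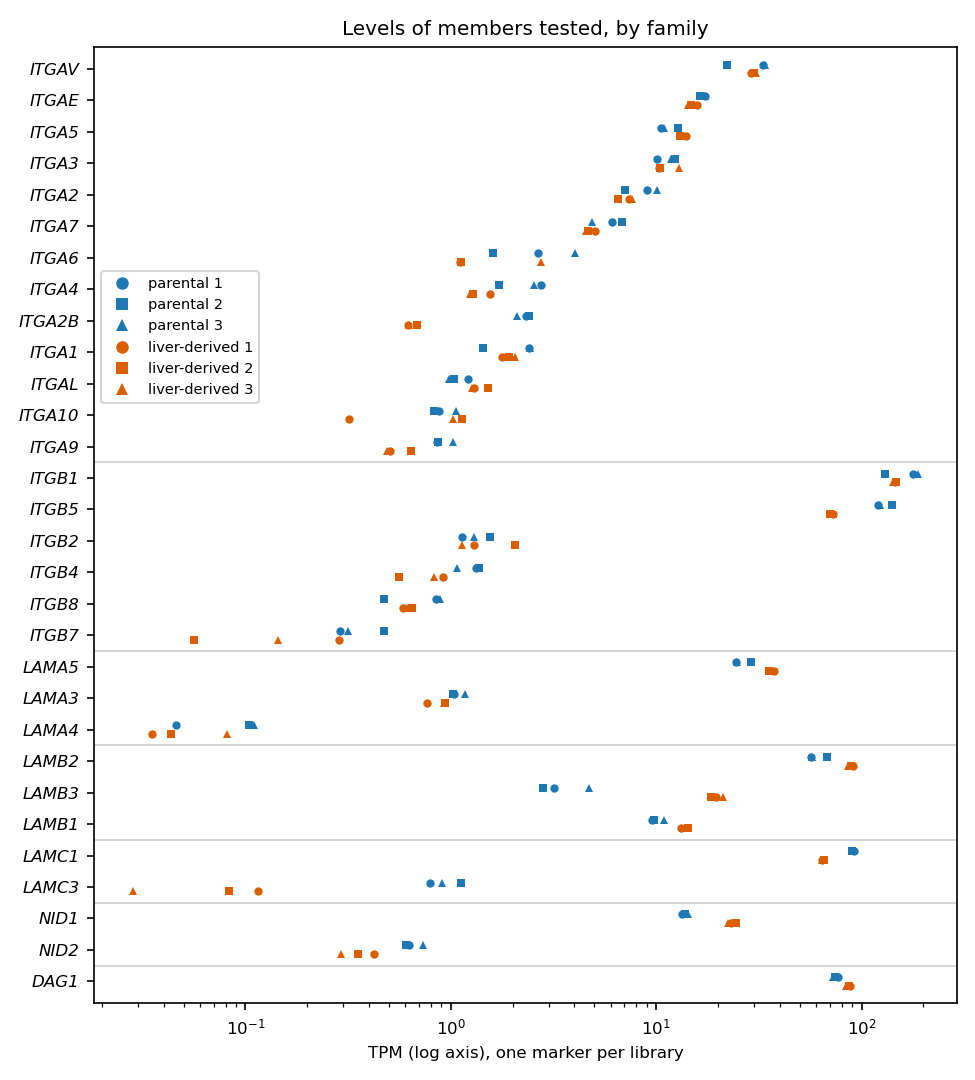
Level of members tested in TPM (reads per gene length, scaled to a common total, log axis), one marker per library, blue for parental and orange for liver-derived, shapes for replicates 1 to 3, in order of level within each family. LAMB3 in the liver-derived libraries lies to the right of all parental ones, and LAMC3, ITGA2B and ITGB5 lie to the left.

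**Figure D2:**
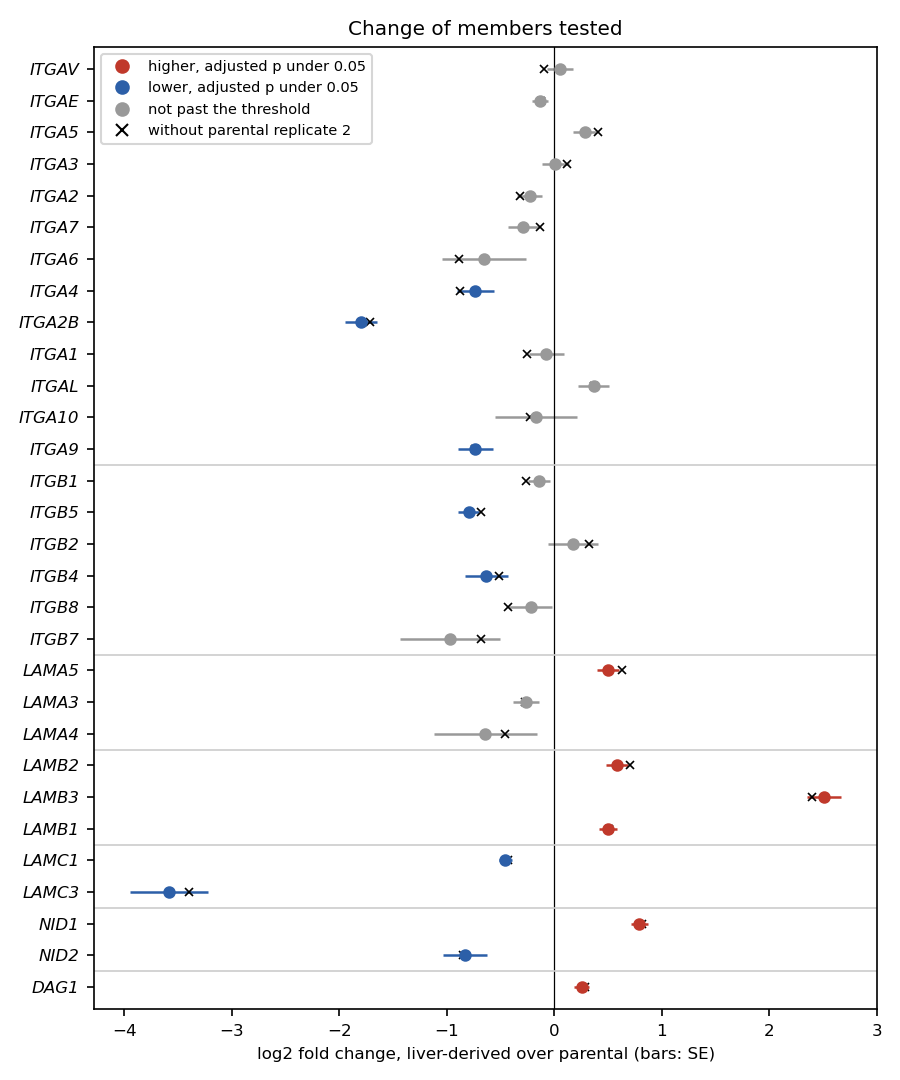
Fitted log2 fold change of liver-derived over parental cells for members tested (horizontal axis; bars are SE), red for higher and blue for lower at an adjusted p under 0.05; crosses give the fit without parental replicate 2. The 3 laminin β chains lie right of 0, and LAMC1 and LAMC3 left of it.

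The 3 laminin β chains tested were all higher. LAMB3 (ENSG00000196878, chromosome 1, 209614870 to 209652466, minus strand) encodes the β3 chain, which joins the α3 chain. Parental replicates 1 to 3 held 4.08, 3.90 and 5.99 CPM, where liver-derived replicates 1 to 3 held 26.2, 24.9 and 28.9 CPM; values below keep this order. The groups were far apart, with means of 4.66 ± 1.16 and 26.7 ± 2.02 CPM (SD, n = 3 each). This was a 5.71-fold difference, or 2.51 on the log2 scale (SE 0.16, edgeR quasi-likelihood adjusted p = 3.58e-06).

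LAMB2 (ENSG00000172037, chromosome 3, 49121114 to 49133118, minus strand), the β2 chain, stood at 105, 135 and 106 CPM and then at 176, 172 and 168 CPM. The highest parental library, replicate 2, stayed under every liver-derived one. It rose by 0.58 on the log2 scale (SE 0.10, edgeR adjusted p = 0.00192). LAMB1 (ENSG00000091136, chromosome 7, 107923799 to 108003255, minus strand), the widely used β1 chain, stood at 21.2, 23.2 and 23.8 CPM against 30.7, 33.1 and 32.7 CPM. The groups did not overlap, and the log2 fold change was 0.50 (SE 0.08, edgeR adjusted p = 0.00113). LAMB1 shares 0.9% of its exonic bases with DLD on the opposite strand, and the strand setting of the counting is not given in the sources used here.

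The laminin γ chain genes LAMC1 and LAMC3 were lower. LAMC1 (ENSG00000135862, chromosome 1, 183023460 to 183145592, plus strand) encodes γ1, the γ chain of most laminins. It held 209.8, 219.6 and 206 CPM in parental and 154, 156 and 154 CPM in liver-derived libraries, with no overlap. It fell by 0.45 on the log2 scale (SE 0.06, edgeR adjusted p = 0.000466).

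LAMC3 (ENSG00000050555, chromosome 9, 131009082 to 131094473, plus strand), the γ3 chain, had the largest fold of the members that passed the filter. It held 79, 113 and 98 raw counts in the parental libraries and 13, 5 and 3 in the liver-derived ones, or 1.63, 2.49 and 1.86 CPM against 0.249, 0.179 and 0.0618 CPM. The liver-derived level thus rests on few reads. The fitted difference was -3.59 on the log2 scale (SE 0.37, edgeR adjusted p = 7.03e-05).

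The promoters of these chains are shown because the β chains rose and LAMC1 fell. RefSeq windows on GRCh38.p14, from 250 bases before a transcription start to 50 after it, matched 29 of the 41 members in 37 windows, and LAMC3 was not among them. Capitals mark letters that match, on either strand, the GC box GGGCGG, the AP-1 motif TGANTCA, the CRE TGACGTCA, the E-box CACGTG or the TATA motif TATAAA; adjoining matches run together. Each window reads 5′ to 3′ on the strand of its gene. They lie at chr1:209651325-209651624 (LAMB3, minus), chr3:49133001-49133300 (LAMB2, minus), chr7:108003112-108003411 (LAMB1, minus), chr1:183023170-183023469 (LAMC1, plus) and chr18:23872770-23873069 (LAMA3, plus).
LAMB3: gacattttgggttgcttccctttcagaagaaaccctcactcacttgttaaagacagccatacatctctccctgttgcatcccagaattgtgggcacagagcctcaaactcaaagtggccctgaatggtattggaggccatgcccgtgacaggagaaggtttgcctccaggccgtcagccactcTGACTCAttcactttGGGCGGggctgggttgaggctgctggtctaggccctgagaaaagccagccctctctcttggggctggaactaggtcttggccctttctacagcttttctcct
LAMB2: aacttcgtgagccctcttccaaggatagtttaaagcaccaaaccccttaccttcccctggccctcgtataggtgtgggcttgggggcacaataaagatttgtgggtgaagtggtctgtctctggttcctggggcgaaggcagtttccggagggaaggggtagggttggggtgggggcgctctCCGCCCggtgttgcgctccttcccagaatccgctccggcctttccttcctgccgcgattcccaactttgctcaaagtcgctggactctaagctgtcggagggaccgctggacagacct
LAMB1: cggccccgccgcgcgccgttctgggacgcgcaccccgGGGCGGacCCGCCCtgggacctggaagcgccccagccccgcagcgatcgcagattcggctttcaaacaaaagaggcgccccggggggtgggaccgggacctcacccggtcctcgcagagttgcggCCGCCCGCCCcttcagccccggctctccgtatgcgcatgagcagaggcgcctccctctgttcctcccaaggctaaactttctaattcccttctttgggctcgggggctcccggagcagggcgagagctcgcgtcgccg
LAMC1: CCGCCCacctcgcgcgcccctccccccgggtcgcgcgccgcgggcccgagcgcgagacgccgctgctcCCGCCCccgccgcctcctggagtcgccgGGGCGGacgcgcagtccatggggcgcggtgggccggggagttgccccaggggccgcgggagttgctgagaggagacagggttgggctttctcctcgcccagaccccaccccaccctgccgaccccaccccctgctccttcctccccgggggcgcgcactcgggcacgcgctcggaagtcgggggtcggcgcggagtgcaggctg
LAMA3: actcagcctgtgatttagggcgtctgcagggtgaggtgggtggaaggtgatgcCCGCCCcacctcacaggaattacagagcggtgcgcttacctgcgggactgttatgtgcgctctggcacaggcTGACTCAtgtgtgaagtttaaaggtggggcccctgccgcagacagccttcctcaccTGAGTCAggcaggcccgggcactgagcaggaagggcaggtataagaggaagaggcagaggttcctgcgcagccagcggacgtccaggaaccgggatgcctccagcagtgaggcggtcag

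The table holds 3 LAMB3 starts, and the one shown was chosen after its letters were seen, because it holds an AP-1 match; the other 2 hold none. The LAMB3 window shown lies inside the gene, where the other 2 span its 5′ end. LAMA3 holds 2 AP-1 matches, and its window also lies inside the gene, at an internal start. An AP-1 match occurred in 3 of the 37 member windows, the third being ITGA5, and in 7.71% of the 35116 windows of all genes. The GC box, present in all 5 windows shown, occurred in 62.16% of member windows and 44.95% of all windows. CRE was in 0 member windows and in 1.85% of all, the E-box in 2.70% and 7.26%, and the TATA motif in 5.41% and 11.5%. Of the windows shown, GC content was 53.7% in LAMB3, 58.7% in LAMB2 and 71.0% in LAMB1, which rose, and 79.0% in LAMC1, which fell. It was 61.7% in LAMA3, which was not called. Elsewhere among the members it was 82.7% in LAMA5 and 74.7% in NID1, which rose. In ITGA2B and NID2, which fell, it was 49.7% and 69.0%. A link between promoter GC content and direction was not tested. The 2 LAMB3 windows not shown had 61.3% and 60.7%. A match is a string of letters and was not tested as a binding site.

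Among the laminin α chains tested, LAMA5 was higher, and LAMA3 and LAMA4 did not pass. LAMA5 (ENSG00000130702, chromosome 20, 62307955 to 62367312, minus strand) encodes α5, the α chain of the laminins of most adult epithelia. It stood at 94.9, 122 and 95.4 CPM in parental and 153, 144 and 145 CPM in liver-derived libraries, again with parental replicate 2 the highest of its group and under all liver-derived ones. It rose by 0.50 on the log2 scale (SE 0.10, edgeR adjusted p = 0.00439). LAMA5 shares 1.7% of its exonic bases with ADRM1 on the opposite strand.

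LAMA3, the α3 chain that joins β3, held 3.79, 4.05 and 4.28 CPM against 2.95, 3.62 and 3.58 CPM. The groups did not overlap, but the edgeR adjusted p was 0.119 at a log2 fold change of -0.27 (SE 0.12). LAMA4, an α chain of vessel walls, rested on few reads: 7, 16 and 18 counts in parental and 6, 4 and 13 in liver-derived libraries, which overlapped.

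On the scale per length (TPM), the β chains summed to 74.1 ± 5.52 in parental and 122 ± 1.18 in liver-derived libraries (SD, n = 3 each). The γ chains summed to 94.2 ± 1.42 and 65.5 ± 0.570 TPM, and the α chains to 27.27 ± 2.60 and 37.01 ± 1.06 TPM. In parental cells the γ sum exceeded the β sum in every library, and in liver-derived cells the β sum exceeded the γ sum in every library. LAMB2 made up most of the β sum in both groups, 81.4% ± 2.85 of its TPM and then 72.4% ± 1.37. LAMB3 went from 4.84% ± 1.48 to 16.2% ± 1.21 of the β sum. LAMA5 held 95.5% and 97.3% of the α sum, and LAMC1 96.5% and 98.6% of the γ sum. These sums and shares were not tested.

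The α3 and β3 chains, which form 1 laminin together, differed in their change. The TPM ratio of LAMB3 to LAMA3 was 3.06, 2.74 and 3.98 in parental and 25.4, 19.6 and 22.9 in liver-derived libraries. The ratio of LAMB2 to LAMC1, the main β and γ chains by level, was 0.614, 0.752 and 0.628 and then 1.41, 1.35 and 1.34. In both ratios every liver-derived library was above every parental one. The ratio of LAMB1 to LAMB2, both higher, was 0.168 ± 0.0226 and 0.157 ± 0.00939, and its groups overlapped.

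**Figure D3:**
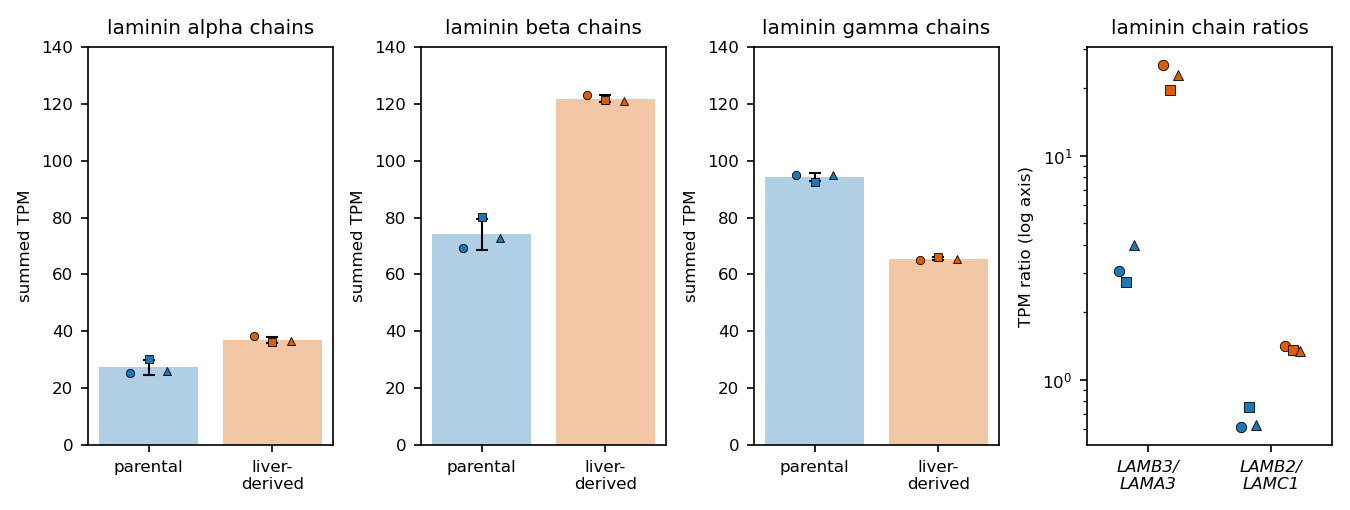
Summed TPM of the laminin α, β and γ chains (bars, mean; error bars, SD over 3 libraries; markers, libraries) and, at the right on a log axis, the TPM ratios of LAMB3 to LAMA3 and of LAMB2 to LAMC1 in each library. The β sum went from 74.1 to 122 TPM and the γ sum from 94.2 to 65.5 TPM, and LAMB3 over LAMA3 lies between 19.6 and 25.4 in liver-derived libraries.

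The nidogens moved in opposite directions. NID1 (ENSG00000116962, chromosome 1, 235975830 to 236065162, minus strand), which binds the laminin γ1 chain and collagen IV, held 21.2, 23.5 and 22.6 CPM against 38.5, 40.6 and 37.7 CPM. The lowest liver-derived library was well above the highest parental one, and the log2 fold change was 0.79 (SE 0.08, edgeR adjusted p = 4.69e-05). NID2 (ENSG00000087303, chromosome 14, 52004803 to 52069228, minus strand), its paralog, held 1.09, 1.12 and 1.25 CPM against 0.766, 0.644 and 0.536 CPM. Its log2 fold change was -0.83 (SE 0.21, edgeR adjusted p = 0.0111), and without liver-derived replicate 3 the edgeR adjusted p was 0.0540. Reads of RTRAF, which averaged 3100 counts against 42 for NID2 and lies on the opposite strand over 30.0% of the NID2 exons, cannot be told apart from NID2 without a known strand setting.

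DAG1 (ENSG00000173402, chromosome 3, 49468703 to 49535618, plus strand) encodes both dystroglycan subunits. It held 144, 149 and 135 CPM in parental and 173, 171 and 166 CPM in liver-derived libraries. The groups did not overlap, and the log2 fold change was 0.26 (SE 0.07, edgeR adjusted p = 0.0156). The call was lost without parental replicate 3 or any 1 liver-derived library, at a log2 fold change of 0.22 without the former and of 0.25, 0.27 and 0.28 without liver-derived replicate 1, 2 or 3.

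Of the integrins that bind laminin, ITGB4 was lower and the α subunits did not pass. ITGB4 (ENSG00000132470, chromosome 17, 75721328 to 75757818, plus strand), the β4 subunit of hemidesmosomes, held 2.43, 2.71 and 1.95 CPM against 1.76, 1.07 and 1.61 CPM. The groups lay close together without overlap, and the log2 fold change was -0.63 (SE 0.20, edgeR adjusted p = 0.0350). The call was lost without parental replicate 1 (-0.62), without liver-derived replicate 2 (-0.47), without liver-derived replicate 3 (-0.68) or without both second replicates (-0.36).

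ITGA6, the only α partner of β4, held 4.69, 3.06 and 7.05 CPM in parental and 2.07, 2.08 and 5.13 CPM in liver-derived libraries. Replicate 3 was the highest in both groups, and the groups overlapped. The log2 fold change was -0.65 (SE 0.39, edgeR adjusted p = 0.222). Without liver-derived replicate 3 it was -1.26 and passed the threshold (edgeR adjusted p = 0.0249). ITGA6 lies just under the level set for a full account and is given because of its role with ITGB4.

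ITGA3, the α3 subunit, held 26.8, 35.4 and 31.02 CPM against 28.6, 28.99 and 36.2 CPM, with overlap (log2 fold change 0.01, SE 0.13, edgeR adjusted p = 0.953). Its sign changed under upper-quartile scaling and under scaling by library size alone. ITGA7, the α7 subunit known from muscle, held 10.6, 12.7 and 8.38 CPM against 9.09, 8.41 and 8.34 CPM. Its groups overlapped, at a log2 fold change of -0.29 (SE 0.14, edgeR adjusted p = 0.148).

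Basal cells use ITGB4 and ITGA6, and 2 of the 4 markers of basal epithelium, KRT5 and KRT14, were lower beside ITGB4. KRT15 did not pass (log2 fold change -0.53, SE 0.23), and TP63 was under the filter. The list summed to 3.39 to 5.25 CPM in parental and 1.36 to 2.08 CPM in liver-derived libraries, with TP63, the defining basal factor, between 0.0220 and 0.215 CPM in all 6. Fewer cells of a type and less RNA per cell cannot be told apart in bulk RNA, and the part of these markers in the result was not tested.

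The integrin β1 and β5 genes held nearly all of the integrin β level. Per length, ITGB1 and ITGB5 came to 55.4% ± 6.86 and 43.4% ± 6.71 of the β sum of 297 ± 20.1 TPM in parental cells, and to 65.9% ± 0.721 and 32.7% ± 0.828 of 219.8 ± 1.99 TPM in liver-derived cells. ITGB5 (ENSG00000082781, chromosome 3, 124761948 to 124901418, minus strand) encodes β5, which pairs with αV to bind vitronectin. It held 211, 264 and 213 CPM against 134, 128 and 134 CPM. All parental libraries were above all liver-derived ones, and the log2 fold change was -0.80 (SE 0.10, edgeR adjusted p = 0.000190).

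ITGB1 (ENSG00000150093, chromosome 10, 32900319 to 33005792, minus strand), the partner of most α subunits, held 290.4, 228 and 303 CPM against 248, 251 and 244 CPM. Parental replicate 2 was under every liver-derived library and the other parental libraries were above them. The log2 fold change was -0.15 (SE 0.10, edgeR adjusted p = 0.304). Without parental replicate 2 it was -0.26 and passed the threshold (edgeR adjusted p = 3.47e-12). After a correction for GC content it was -0.20 and passed as well (edgeR adjusted p = 7.18e-05).

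ITGAV (ENSG00000138448, chromosome 2, 186590065 to 186680901, plus strand), the αV partner of β5, showed the same pattern between libraries: 73.6, 53.1 and 74.8 CPM against 67.6, 69.7 and 71.8 CPM. Its log2 fold change was 0.05 (SE 0.13, edgeR adjusted p = 0.771) and turned to -0.09 without parental replicate 2 (edgeR adjusted p = 0.0156) and to -0.0036 under scaling by library size alone. The TPM ratio of ITGB5 to ITGAV was 3.65, 6.33 and 3.63 in parental and 2.52, 2.34 and 2.37 in liver-derived libraries, with no overlap.

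ITGA5, the α5 subunit of the fibronectin receptor, held 21.7, 28.1 and 22.4 CPM against 30.2, 28.1 and 29.3 CPM. Parental replicate 2 and liver-derived replicate 2 nearly met, and the log2 fold change was 0.28 (SE 0.11, edgeR adjusted p = 0.0665). Without parental replicate 2 it was 0.41 and passed the threshold (edgeR adjusted p = 9.44e-09). ITGA2B (ENSG00000005961, chromosome 17, 44372180 to 44389505, minus strand) encodes αIIb, the platelet fibrinogen receptor subunit. It held 3.48, 3.90 and 3.15 CPM against 0.976, 1.07 and 0.989 CPM, from 166 to 177 parental and 30 to 51 liver-derived reads. The groups were well apart, at a log2 fold change of -1.80 (SE 0.15, edgeR adjusted p = 1.57e-05). Its partner ITGB3 held 7 counts or fewer in every library and was not tested, and the platelet markers GP9 and PPBP were at 0 in all 6.

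The collagen-binding α subunits sit side by side, ITGA2 30115 bases past ITGA1 on chromosome 5. ITGA1 held 12.2, 7.78 and 12.1 CPM against 9.38, 10.2 and 10.96 CPM, and ITGA2 held 19.2, 16.2 and 21.4 CPM against 16.5, 14.6 and 17.3 CPM. The groups overlapped in both, with parental replicate 2 the lowest parental library in both. The log2 fold changes were -0.07 (SE 0.17, edgeR adjusted p = 0.761) and -0.23 (SE 0.12, edgeR adjusted p = 0.161). Without parental replicate 2 they were -0.26 and -0.32 and both passed the threshold (edgeR adjusted p = 0.00368 and 7.57e-05). ITGA10 overlapped between groups, with liver-derived replicate 1 at 0.574 CPM and the other libraries at 1.503 to 2.04 CPM.

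The α4 and α9 genes, close relatives that bind fibronectin and VCAM1 among other ligands, were both lower. ITGA4 (ENSG00000115232, chromosome 2, 181457202 to 181536187, plus strand) held 5.91, 3.94 and 5.42 CPM against 3.48, 2.86 and 2.80 CPM, without overlap (log2 fold change -0.73, SE 0.17, edgeR adjusted p = 0.00810). ITGA9 (ENSG00000144668, chromosome 3, 37452115 to 37823514, plus strand) held 1.91, 2.09 and 2.27 CPM against 1.19, 1.503 and 1.15 CPM, also without overlap (log2 fold change -0.73, SE 0.16, edgeR adjusted p = 0.00638). ITGA9 shares 6.5% of its exonic bases with ITGA9-AS1, which averaged 441 counts against 78 for ITGA9. Their reads over that stretch cannot be told apart without a known strand setting.

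Among genes of leukocyte integrins, ITGAE, the αE subunit that binds E-cadherin, was the highest at 31.1, 31.5 and 30.8 CPM against 29.8, 28.0 and 27.3 CPM. The groups did not overlap, but the edgeR adjusted p was 0.189 (log2 fold change -0.13, SE 0.07), and without parental replicate 2 it was 0.0276. ITGAL, ITGB2 and ITGB7 stood between 0.0716 and 3.97 CPM in all libraries and did not pass, with edgeR adjusted p of 0.0751, 0.598 and 0.134. The leukocyte and platelet marker list summed to 12.7 to 15.9 CPM and 12.4 to 20.5 CPM, most of it LYZ, with CD3E, GP9 and PPBP at 0 in all libraries. ITGB7 lies over ZNF740 on the opposite strand for 42.1% of its exons. ITGB8, a further partner of αV, held 2.09 to 3.60 CPM against 2.51 to 2.79 CPM, with overlap (edgeR adjusted p = 0.431, and 0.00710 without parental replicate 2).

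The 10 members under the filter held 0 to 19 counts per library. They were ITGA8, ITGA11, ITGAD, ITGAM, ITGAX, ITGB3, ITGB6, LAMA1, LAMA2 and LAMB4. ITGA8 held 4, 1 and 6 counts in parental libraries and 0 in all 3 liver-derived ones, which allows up to 3 counts per library, for counting error only. ITGAM held 16 and 19 counts in liver-derived replicates 1 and 2 and 0 in replicate 3.

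Parental replicate 2 moved the members along GC content. Over the 16 members with a mean of at least 5 CPM, its log2 ratio to the mean of parental replicates 1 and 3 had a Pearson r of 0.805 and a Spearman rho of 0.765 with the GC content of the longest transcript. Over 11487 genes of all kinds at that level, r was 0.858 and rho 0.891. These are descriptions across genes of the same libraries. At the low end, ITGA1 (38.8% GC) was at -0.63 and ITGAV (38.3%) at -0.48, and at the high end, LAMA5 (66.4%) was at 0.35 and ITGA7 (60.2%) at 0.41. LAMB3 (58.9%) was off this line at -0.36, where parental replicate 3 stood 0.54 above replicate 1.

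Without that library, 7 members were higher and 14 lower of 34 tested, where 59.8% of all genes were called. The calls added were ITGA5 higher and ITGB1, ITGA1, ITGA2, ITGAV, ITGAE and ITGB8 lower. With the GC correction and all 6 libraries, 8 members were higher and 11 lower, where 56.7% of all genes were called. The 3 β chains, LAMA5, NID1 and DAG1 stayed higher, and LAMC1, LAMC3, NID2, ITGB5, ITGA2B, ITGA4, ITGA9 and ITGB4 stayed lower, in both.

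**Figure D4:**
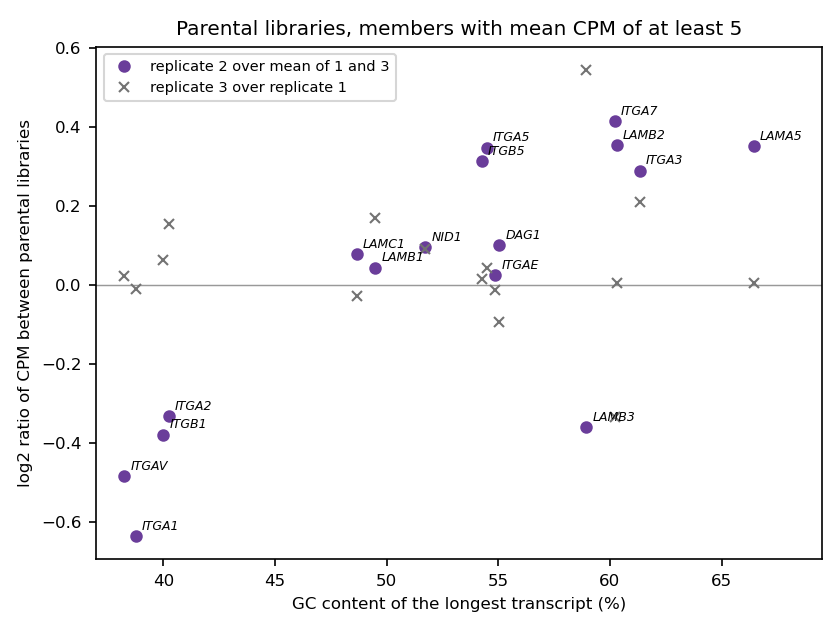
Log2 ratio of CPM between parental libraries against GC content of the longest transcript, for the 16 members with a mean of at least 5 CPM; filled circles are replicate 2 over the mean of replicates 1 and 3, crosses replicate 3 over replicate 1. The circles rise from -0.63 for ITGA1 to 0.41 for ITGA7, with LAMB3 below the others of its GC content.

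The authors' TPM values gave fewer falls. In limma on log2(TPM + 1), 6 members were higher and 5 lower, where 37% of 17453 genes were called. The 6 were the same genes as in the counts, LAMB1, LAMB2, LAMB3, LAMA5, NID1 and DAG1, and the 5 included LAMC1, ITGB5, ITGA2B and ITGA4. LAMC3, ITGA9 and NID2 were under the TPM filter, and ITGB4 had a limma adjusted p of 0.0783. Fold changes on this scale understate the change of low genes, and both tables come from the same reads.

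Other genes of the pathway were read from 6 lists written with earlier results of these data known. Of all genes tested, 38.8% were called, 17.5% higher and 21.3% lower. Without parental replicate 2, 59.8% were called, 28.8% higher and 31% lower. Basement membrane genes were called 7 higher and 5 lower of 22 tested, or 54.5%. COL4A2, a collagen IV chain, held 2.45, 2.49 and 3.91 CPM against 12.1, 11.4 and 14.995 CPM (log2 fold change 2.12, edgeR adjusted p = 3.06e-05). The other collagen IV chains, given outside the naming rule, were mixed. COL4A3 and COL4A4 were higher (log2 fold change 1.11 and 0.70) and COL4A6 was lower (-1.90). COL4A1 and COL4A5 did not pass (0.49 and 0.01). HSPG2, the heparan sulfate proteoglycan perlecan, which binds dystroglycan, rose by 1.57 on the log2 scale (edgeR adjusted p = 2.23e-05). SMOC1, a calcium-binding matrix protein, fell by 2.55 and FBLN1, a fibulin that binds nidogen and laminin, fell by 1.71 on that scale (edgeR adjusted p = 1.82e-07 and 3.13e-06). The median log2 fold change of the list was 0.07. It had 8 higher and 6 lower without parental replicate 2.

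Other integrin ligands were called 5 higher and 13 lower of 27 tested, or 66.7%, where 38.8% of all genes were called. The median of the list was -0.46. Without parental replicate 2 it had 6 higher and 14 lower, where 59.8% of all genes were called. CCN2, a matricellular protein, rose by 2.20 and LTBP1, which anchors latent TGF-β, by 0.47 on the log2 scale (edgeR adjusted p = 1.88e-07 and 0.00394). The largest falls named by the rule were L1CAM, an adhesion molecule that binds RGD integrins, from 9.45 to 12.9 CPM down to 0.0716 to 0.211 CPM, and COL5A1, a collagen V chain, from 12.7 to 14.7 CPM down to 0.708 to 1.25 CPM. Their log2 fold changes were -5.92 and -3.91 (edgeR adjusted p = 2.71e-07 and 4.11e-07). TGFB1 and TGFB3, whose latent forms αV integrins release, were both lower (-2.17 and -0.76), and were chosen after their values were seen.

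Integrin adaptors and kinases were called 4 higher and 9 lower of 33 tested, or 39.4%, near the share of all genes. FYN, a Src family kinase, rose by 1.16 and TNS3, a tensin, by 0.71, and FERMT3, the kindlin of blood cells, fell by 1.58, all on the log2 scale (edgeR adjusted p = 5.68e-06, 0.000486 and 1.83e-05). This list had 11 higher and 13 lower without parental replicate 2, where 59.8% of all genes were called. FERMT3 shares 2.9% of its exonic bases with TRPT1 on the opposite strand.

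Laminin receptors and hemidesmosome partners were called 2 higher and 5 lower of 11 tested, or 63.6%, where 38.8% of all genes were called. Their median was -0.23. CD9, a tetraspanin that associates with β1 integrins, held 237, 230.5 and 226 CPM against 76.9, 78.9 and 75.8 CPM (log2 fold change -1.58, edgeR adjusted p = 2.16e-07). SDC1, a cell surface proteoglycan, was lower (-0.67, edgeR adjusted p = 0.000360). TSPAN8, a tetraspanin, and SDC4, a syndecan of focal adhesions, were the 2 that were higher (0.54 and 0.37, edgeR adjusted p = 0.000981 and 0.0101). Without parental replicate 2 this list had 3 higher and 5 lower, where 59.8% of all genes were called. Its falls were 2 without any 1 liver-derived library.

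Of all genes tested, 21.3% were lower and 17.5% higher. Of 10 genes tested of the dystroglycan complex, 6 were lower and 0 higher, with a median of -0.45, where DAG1 itself was higher. By edgeR 0 were higher at an unadjusted p under 0.05 as well, and 0 by DESeq2. UTRN, the dystrophin relative utrophin, held 8.21, 8.64 and 9.61 CPM against 1.95, 2.15 and 1.85 CPM (log2 fold change -2.16, edgeR adjusted p = 1.16e-06). SGCB, SGCE, DTNB and SNTB1 were also lower, from -0.36 to -0.70. SGCB (edgeR adjusted p = 0.0418) lost its call without parental replicate 1 (-0.30) or 3 (-0.29) and without liver-derived replicate 1 (-0.37), 2 (-0.29) or 3 (-0.39), and in limma-voom (-0.34). The complex had 7 lower and 0 higher without parental replicate 2, where 31% of all genes were lower and 28.8% higher. Of the 13 genes that glycosylate dystroglycan, 3 were lower and 1 higher, or 30.8%, where 38.8% of all genes were called. Their median was -0.02. RXYLT1 and B4GAT1, enzymes of the laminin-binding glycan, were lower by -0.47 and -0.41 (edgeR adjusted p = 0.000738 and 0.0190). Without parental replicate 2 the glycosylation genes were 4 higher and 3 lower, where 59.8% of all genes were called. Without any 1 liver-derived library 1 glycosylation gene was lower. B4GAT1 lost its call in each of these 3 liver-derived fits, at -0.40, -0.41 and -0.40.

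**Figure D5:**
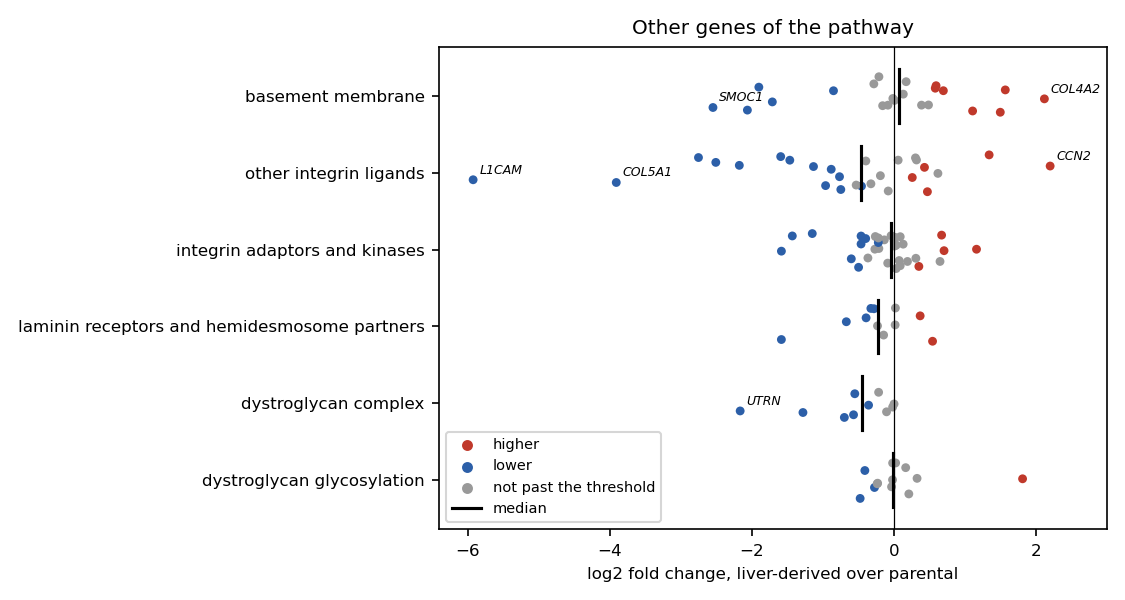
Fitted log2 fold change of liver-derived over parental cells (horizontal axis) for each gene tested of the 6 lists (rows), red for higher and blue for lower at an adjusted p under 0.05, grey otherwise; black bars are list medians and vertical scatter within a row has no meaning. Every called gene of the dystroglycan complex lies left of 0, down to UTRN at -2.16.

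Markers of fibroblasts and muscle, endothelium and hepatocytes were read for other cells that could hold the members' RNA. The fibroblast and muscle list, which shares COL1A1, COL1A2 and COL3A1 with the integrin ligands, summed to 23.9 to 27.8 CPM and 22.9 to 24.1 CPM, most of it COL1A1. LUM and COL3A1 were its 2 called genes, lower by -4.93 and -1.13 (edgeR adjusted p = 1.81e-05 and 0.00371), with LUM at 1.48 to 1.95 CPM in parental and 0.0206 to 0.143 CPM in liver-derived libraries. The endothelium list summed to 0.455 to 0.700 and 0.555 to 0.752 CPM, with CDH5 at 0 in all libraries. The hepatocyte list summed to 43.3 to 53.8 and 65.5 to 69.1 CPM, nearly all of it ALB. ALB and APOA1 were higher (log2 fold change 0.46 and 1.78, edgeR adjusted p = 0.00538 and 0.00167) and ASGR1 lower (-3.08, edgeR adjusted p = 1.16e-05), with APOB, CYP3A4 and HP at 2 counts or fewer in every library. The part of these cells in the members' changes was not tested.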

How the data were processed

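PolyA-selected RNA of 6 libraries was sequenced as read pairs, per the labels' protocols. Per the submitters' processing notes, Trimmomatic 0.36, STAR 2.5.2b and featureCounts of Subread 1.5.2 were used with GRCh38. Of the counting, the strand setting, annotation release and handling of mates are not given in these sources. What the authors deposited were raw gene counts, one file a library, and a TPM table, whose values could be recomputed from the counts to a relative tolerance of 1e-04. Its 391182 rows that name no gene, some with spreadsheet errors, were dropped.

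Groups came from the sample titles. After filterByExpr and TMM scaling, the test was edgeR 4.0.16 in R 4.3.3 (robust quasi-likelihood, group only) on the counts, and p-values were adjusted by Benjamini-Hochberg over 19255 genes at a threshold of 0.05. The common biological coefficient of variation was 9.57%. Means are given with SD (n = 3) and fitted log2 fold changes with SE (the fold change over the square root of the quasi-F statistic). TPM were tested with limma 3.58.1 as log2(TPM + 1) where at least 3 libraries reached a TPM of 1. GC content came from GENCODE 29, in which 99.0% of the identifiers were found, and 96.3% of these had the same span. The GC correction used lowess offsets per library with a span of 0.3.

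The members, all gene lists and the naming rule were chosen with earlier results of these data known. Members were described library by library where they passed the filter with a group mean of at least 5 CPM, or were called with at least 1 CPM in the higher group; from each list, up to 2 rises and 2 falls with the largest change, called and with at least 5 CPM in the higher group, were named. The text says where a gene falls outside this rule. Some genes that the rule took are counted but are not reported here by name. Alternatives were RLE, upper-quartile and no scaling factors, no filter or CPM of at least 1, DESeq2 1.42.0, limma-voom, each library and both second replicates left out, the replicate number as a block, the GC correction, a glmTreat threshold of 1 on the log2 scale, and, on TPM, no filter or a pseudocount of 0.1. The GC correction without parental replicate 2 was chosen after seeing the data. By a chi-square over genes averaging 50 counts or more, every pair of libraries within a group differed beyond sampling noise. Each library was counted as 1 replicate, but this does not show that they were separate cultures, and the spread may be technical. The edgeR and limma steps were tested on simulated data.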

Additional observations from a re-analysis of the deposited data

How the results depend on the processing

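Of the 15 members called, 11 were called in all 16 alternatives that test for any change; NID2, ITGB4 and DAG1 were among the others. RLE factors, limma-voom and CPM of at least 1 in 3 libraries changed no member's call or direction, and the cause of the changes below was not tested.

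Against a log2 fold change of 1, glmTreat kept 1 member higher (LAMB3) and 2 lower, with 1 integrin lower and 1 higher and 1 lower among laminins, nidogens and dystroglycan. It kept 3 basement membrane genes higher, 1 ligand higher and 6 lower, 0 adaptors higher and 2 lower, 0 laminin receptors higher and 1 lower, 2 of the dystroglycan complex lower and 0 of glycosylation lower. With no filter, integrins were 2 higher and 8 lower, and with DESeq2 1 was higher. Without both second replicates, integrins were 1 higher and 9 lower, adaptors 11 higher and glycosylation genes 5 higher, with a member median of -0.26. With the GC correction, integrins were 2 higher, adaptors 11 higher and glycosylation genes 4 higher, where 56.7% of all genes were called. With that correction and without parental replicate 2, 14 members were lower, integrins were 1 higher and 10 lower, adaptors 11 higher, laminin receptors 4 higher and glycosylation genes 3 higher, with a member median of -0.26. Scaling by library size alone gave a median of -0.27 and CPM of at least 1 a median of -0.17. For the other settings of this paragraph, the share of all genes called is not given.

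Each library left out in turn gave 5 to 7 members higher and 8 to 14 lower, integrins 0 to 1 higher and 4 to 11 lower, adaptors 4 to 11 higher, laminin receptors 2 to 5 lower, glycosylation genes 1 to 4 higher and 1 to 3 lower, and a member median of -0.26 to -0.13. On the authors' TPM it gave 2 to 8 members lower. In the counts, 59.8% of all genes were called without parental replicate 2. For the other libraries left out, and for those on TPM, the share of all genes is not given. These ranges can therefore not be read as particular to the members or lists.

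ITGAV turned to -0.0036 by library size alone, -0.0792 without both second replicates and -0.0149 with the GC correction and without parental replicate 2. ITGA3 turned to -0.0019 with upper-quartile factors and -0.0384 by library size alone. With 1 library left out, members that changed sign ran from -0.43 to 0.27 (ITGA10), -0.26 to 0.0246 (ITGA1), -0.0915 to 0.14 (ITGAV), -0.11 to 0.12 (ITGA3) and -0.0688 to 0.34 (ITGB2).

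Deviations of libraries with the same replicate number had correlations of -0.0298, -0.0082 and 0.0827. Those with unlike numbers ran from -0.0612 to 0.0585. The value for replicate 3 was the highest, and these correlations over all genes cannot tell whether the numbers pair the samples. With the replicate block, 6 members were higher and 10 lower, and the member median was -0.23. ITGA6 was the 1 added (log2 fold change -0.73, edgeR adjusted p = 0.00525). The share of all genes called with the block is not given, so the added call cannot be read as particular to the members. The 10 members under the filter on low counts are too shallow to compare.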
